A study of Mus musculus with 12 samples.

Results

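Zfp703 and Zfp503 are the members described here, 2 of the 54022 genes in the deposited tables of MIN6 cells, a mouse-derived insulin-secreting beta-cell line of wild-type (WT) genotype. They were taken by gene name, and they had been selected on readouts of these libraries: Zfp703 for its rise with glucose and Zfp503 for lower values with trimethylamine N-oxide (TMAO) at high glucose. The 12 libraries fell into 4 conditions of 3: low glucose with vehicle, low glucose with TMAO, high glucose with vehicle and high glucose with TMAO. Low glucose was 2.8 mM and high glucose 16.8 mM, and TMAO was given at 100 nM for 18 h, all to the same cell line and with no genetic change in any condition. A single cell line stands for the beta cell in all comparisons, and the 3 libraries of a condition are described by the study as biologically independent cell samples, so the p-values measure the spread between samples of this line.

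Zfp703 and Zfp503, also called Nlz1 and Nlz2, are the mouse members of the NET family of zinc finger proteins, whose founding members were found in flies. They act as transcriptional repressors in the nucleus, where they recruit corepressors of the Groucho/TLE family and histone deacetylases. They are best known from development: Zfp503 (Nolz1) from the striatum, the limb and the closing eye, and the human counterpart of Zfp703 as an oncogene of luminal breast cancer. Each carries an unusual C2H2 zinc finger, in which the spacing between the cysteines is wider than in the classical finger.

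The finger is shown for both members because it is the element that places them among the zinc finger genes and because their similarity bears on whether reads could be assigned to the wrong member. Sequences were read from the GENCODE M21 transcripts (GRCm38), 5′ to 3′ on the coding strand. The codons of the cysteines and histidines are in capitals, and the finger lies in the last exon of each gene, in coding sequence.
Zfp703, exon 2 of 2, plus strand, chr8:26979693-26979773: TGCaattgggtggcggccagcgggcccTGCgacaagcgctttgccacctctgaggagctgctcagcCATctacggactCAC
Zfp503, exon 3 of 3, minus strand, chr14:21985203-21985283: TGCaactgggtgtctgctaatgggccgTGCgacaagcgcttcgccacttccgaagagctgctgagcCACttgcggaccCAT
Of the 81 bases, 17 differed between the members, and 12 codons differed without changing the residue, so that 25 of 27 residues of the finger were identical. In both, 8 residues separated the cysteines, 12 separated the second cysteine from the first histidine and 3 separated the histidines. The pattern occurred once in each translated protein. The proteins were 594 (Zfp703) and 652 (Zfp503) residues long and shared 367 identical residues among 552 aligned, or 66.5%.

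Zfp703 (ENSMUSG00000085795) is a plus-strand gene of chromosome 8 (mm10, 26977325 to 26981461) with 3392 exonic bases. Zfp503 (ENSMUSG00000039081) is a minus-strand gene of chromosome 14 (21983959 to 21989601) with 4216 exonic bases. The antisense RNA Gm45371 has both of its exons, 459 bases in all, inside exons of Zfp703, which is 13.5% of the exonic bases of Zfp703. It was listed at 0 counts in all libraries. The strand setting of the counting was not given in the sources used here, and without strand the fragments of Zfp703 and Gm45371 cannot be told apart in that stretch.

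Totals lay between 16793162 and 22340542 fragments per library, and 16222 genes passed the filter on low counts, both members among them. All 7 beta cell markers were detected in every library, with Ins2 (insulin) never below 22781 FPKM, that is, fragments scaled to gene length and library size. Of the 19 markers of other cell types, 16 stayed under 1 FPKM and 8 were at 0 in all libraries. The exception in size was Gcg (glucagon), at 199.6 FPKM or more. The summed level of those 19 markers was 202 to 220 FPKM over the 6 low glucose libraries and 225 to 231 FPKM over the 6 high glucose libraries, a difference that moved with glucose and was carried almost entirely by Gcg, which was not itself called (log2 difference 0.12 with vehicle, adjusted p = 0.140 by edgeR). Of the beta cell markers, Mafa, a transcription factor of insulin genes, ranged from 461 to 915 FPKM and was higher in high glucose with vehicle (0.66, adjusted p = 0.0126 by edgeR). The part of these marker levels in the results was not tested. In these bulk samples, fewer cells that express a gene and less RNA per cell cannot be told apart.

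Zfp703 was low in low glucose and about 3-fold higher in high glucose, whichever treatment the cells had received. In low glucose with vehicle its counts were 399, 382 and 339 in replicates 1, 2 and 3, and its levels were 6.18, 5.89 and 5.36 FPKM. In low glucose with TMAO the counts were 460, 393 and 408, and the levels 6.98, 5.94 and 6.42 FPKM. These 6 libraries overlapped between treatments.

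In high glucose with vehicle the counts of Zfp703 were 1208, 1188 and 1160, and the levels 19.0, 17.2 and 20.02 FPKM. In high glucose with TMAO the counts were 984, 1509 and 1016, and the levels 17.2, 19.8 and 17.5 FPKM. Every high glucose library lay above every low glucose library, and the treatments again overlapped. The raw count of 1509 came from a larger library, and in FPKM that library was within the range of high glucose with vehicle.

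The mean level of Zfp703 was 5.81 ± 0.419 FPKM (SD, n = 3) in low glucose with vehicle, 6.45 ± 0.524 in low glucose with TMAO, 18.2 ± 1.43 in high glucose with TMAO and 18.7 ± 1.45 in high glucose with vehicle. In that order only the libraries of low glucose with TMAO and high glucose with TMAO did not overlap between neighbouring conditions. With vehicle the fitted difference between high and low glucose was 1.69 on the log2 scale (SE 0.077), or 3.22-fold. With TMAO it was 1.5 (SE 0.076), or 2.83-fold. Among the 16222 tested genes these were the 37th and the 52nd highest log2 fold changes. Zfp703 was chosen by this rise, so the values are a description and no test is drawn from them. For the same contrasts, 3.3% of tested genes passed an adjusted p of 0.05 with vehicle and 3.64% with TMAO, and the libraries of 18.8% and 18.4% of genes did not overlap. Nothing is read from Zfp703 being among them.

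**Figure D1:**
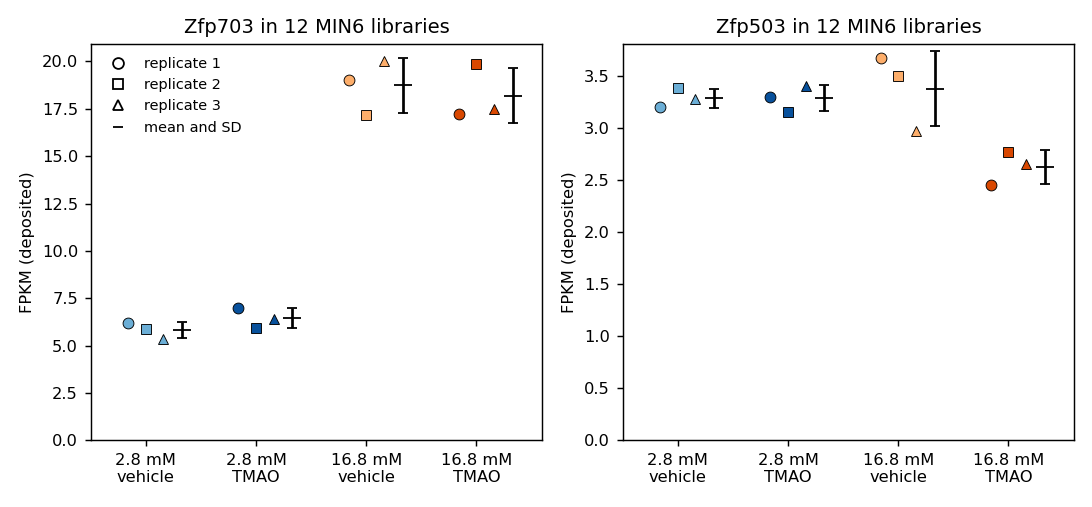
Deposited FPKM values (vertical axes, starting at 0) of Zfp703 (left) and Zfp503 (right) in the 12 MIN6 libraries, by glucose and treatment. Symbols are replicates, and the bars give the mean and SD of 3 libraries. The high glucose libraries of Zfp703 lie at 17.2 to 20.02 FPKM against 5.36 to 6.98 in low glucose, and Zfp503 in high glucose with TMAO lies at 2.45 to 2.77 FPKM, below the other conditions.

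The effect of TMAO on Zfp703 was not part of the choice and was tested. At low glucose the fitted difference was 0.15 (SE 0.083, 95% interval -0.020 to 0.32), with an adjusted p of 0.99991 (edgeR's quasi-likelihood test, Benjamini-Hochberg over all tested genes). It ranged from 0.090 without replicate 1 of low glucose with TMAO to 0.21 without replicate 2 of that condition, with no call. By permutation of the FPKM values (exact, two-sided), p was 0.2, where 3 libraries against 3 cannot give less than 0.1. At high glucose the difference was -0.038 (SE 0.069, interval -0.18 to 0.10), with an adjusted p of 0.980 in the same edgeR test and p = 0.8 in the exact permutation test. So a change of Zfp703 with TMAO was not detected at either glucose level. The intervals of the fit on all libraries allow levels from 0.987-fold to 1.25-fold at low glucose and from 0.884-fold to 1.07-fold at high glucose. The interaction, that is, the rise with glucose under TMAO minus the rise under vehicle, was -0.19 (SE 0.11, interval -0.41 to 0.032) and did not pass the edgeR test (adjusted p = 0.99976). It is the difference of both rises by which Zfp703 was chosen, so it is not independent of that choice.

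Zfp503 was lower than Zfp703 per length of gene in every condition and spanned a narrower range. In low glucose with vehicle its counts were 257, 273 and 258, and its levels 3.20, 3.39 and 3.28 FPKM. In low glucose with TMAO the counts were 270, 260 and 269, and the levels 3.30, 3.16 and 3.41 FPKM. The treatments overlapped throughout at low glucose.

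In high glucose with vehicle the counts of Zfp503 were 290, 301 and 214, and the levels 3.67, 3.50 and 2.97 FPKM. In high glucose with TMAO the counts were 174, 262 and 192, and the levels 2.45, 2.77 and 2.66 FPKM. All 3 libraries of high glucose with TMAO lay below the other 9 libraries. Zfp503 was chosen on high glucose libraries, and the share of all genes with this separation was not counted, so nothing is read from it. The nearest of the 9 was replicate 3 of high glucose with vehicle. That vehicle library also lay apart from its own group, whose coefficient of variation was 10.8% in normalized counts against 2.80% in low glucose with vehicle.

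The mean level of Zfp503 was 2.63 ± 0.162 FPKM (SD, n = 3) in high glucose with TMAO, 3.29 ± 0.124 in low glucose with TMAO, 3.29 ± 0.0914 in low glucose with vehicle and 3.38 ± 0.364 in high glucose with vehicle. The last 3 conditions overlapped, and only high glucose with TMAO stood apart in that order. Its difference from vehicle at high glucose was -0.36 on the log2 scale (SE 0.096), a 0.778-fold level, and it ranged from -0.44 without replicate 3 of high glucose with vehicle to -0.30 without replicate 1 of that condition. Zfp503 was chosen by this contrast, so the difference is given as a description with no test. In the same contrast 0% of the tested genes passed an adjusted p of 0.05 (0 genes by edgeR, with 868 at an unadjusted p under 0.05, and 3 genes by DESeq2). The libraries of 11.1% of genes did not overlap between TMAO and vehicle at high glucose, and nothing is read from Zfp503 being among them.

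At low glucose no difference of Zfp503 with TMAO was detected: the fitted value was -0.00012 (SE 0.094, interval -0.19 to 0.19), with an adjusted p of 0.99991 in edgeR's quasi-likelihood test and p = 1 in the exact permutation test. Neither of the 2 members passed at low glucose, where 0.00616% of tested genes did (1 gene), and neither was among the 6.36% whose TMAO and vehicle libraries did not overlap.

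With vehicle, no difference of Zfp503 with glucose was detected: the fitted value was 0.045 (SE 0.094, interval -0.15 to 0.24; adjusted p = 0.905 by edgeR; exact permutation p = 0.8). With TMAO, Zfp503 was at 0.802-fold in high against low glucose, a log2 difference of -0.32 (SE 0.096, interval -0.51 to -0.12). The 3 high glucose libraries with TMAO all lay below the 3 low glucose libraries with TMAO (the libraries of 18.4% of all genes did not overlap in that contrast, in either direction), and the exact permutation test gave p = 0.1, the smallest it can give. The adjusted p in edgeR's quasi-likelihood test was 0.0636, which did not pass 0.05. The interaction was -0.36 (SE 0.13, interval -0.64 to -0.088), with an unadjusted p of 0.0114 and an adjusted p of 0.99976 in the edgeR test, in which 0% of genes passed (0 genes by edgeR, with 545 at an unadjusted p under 0.05, and 1 by DESeq2). Zfp503 was selected on the high glucose libraries, those with vehicle as well as those with TMAO, so neither of these glucose differences nor the interaction is independent of that choice. The interaction was almost the chosen contrast itself, TMAO against vehicle at high glucose (-0.36), so no support is drawn from its p-values.

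**Figure D2:**
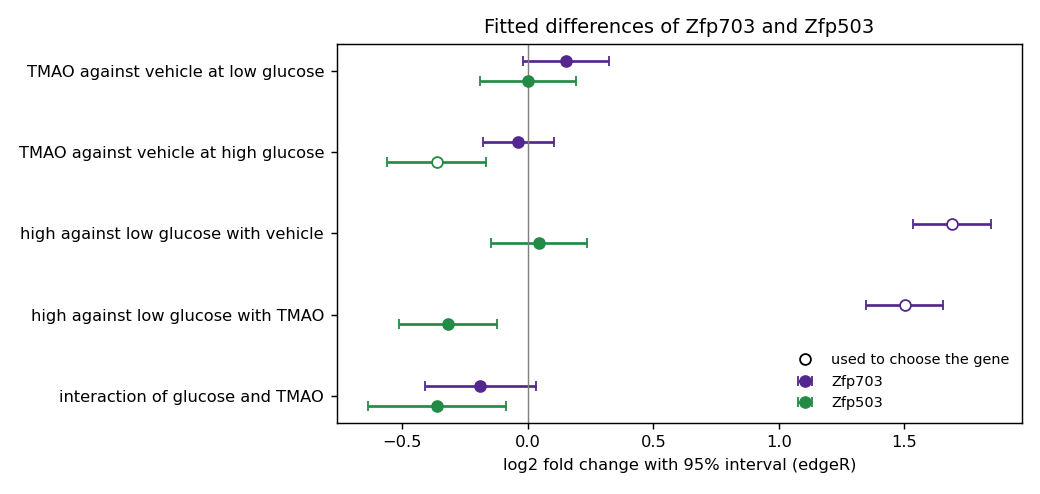
Fitted log2 fold changes (horizontal axis) of Zfp703 and Zfp503 in the 5 comparisons (vertical axis), with 95% intervals from edgeR on all 12 libraries. Open circles are contrasts that were used to choose the gene and carry no test. Zfp703 lies at 1.69 and 1.5 for glucose and near 0 for TMAO, while Zfp503 lies at -0.36 for TMAO at high glucose and at -0.00012 at low glucose.

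The members did not follow each other, and they had been selected on different readouts of these same libraries. Over the 12 libraries, the Pearson correlation of their log2 counts, scaled to library size, was -0.413, a description over libraries that share treatments within a condition and not a test. Among 12308 genes with a mean of at least 50 counts, the 5 most like Zfp703 were Dusp1 (r = 0.996), Dusp4 (0.995), Cebpd (0.995), Lrrc10b (0.994) and Fosl2 (0.994). Dusp1 and Dusp4 encode phosphatases that inactivate MAP kinases, Cebpd a bZIP transcription factor and Fosl2 a Fos-family subunit of AP-1. Their levels spanned a wide range of response: in vehicle, Cebpd went from 1.55 to 14.9 FPKM between low and high glucose, Fosl2 from 2.63 to 14.9, Dusp1 from 10.7 to 38.7, Dusp4 from 36.8 to 82.4 and Lrrc10b from 36.7 to 56.1. In all, 185 genes had an r over 0.9 with Zfp703, as can be the case for any gene that separates the glucose levels.

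For Zfp503 the likeness was weaker, with 1 gene over 0.9. The 5 most like it were B9d2 (r = 0.947), a ciliary transition zone gene, Ccdc85c (0.884), Scrt2 (0.874), Nova2 (0.866) and Fbxl18 (0.863). Scrt2, a zinc finger repressor of the Snail superfamily, was at 1.12, 1.06, 1.14 and 0.778 FPKM in low glucose with vehicle, low glucose with TMAO, high glucose with vehicle and high glucose with TMAO. Nova2, a neuronal splicing regulator, was at 1.69, 1.72, 1.71 and 1.52 FPKM in the same order. Both were thus lowest where Zfp503 was lowest, which the measure of likeness itself selects for.

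Among the 312 tested genes named Zfp followed by a number, Zfp703 had the 31st highest mean level (12.3 FPKM) and Zfp503 the 158th (3.15 FPKM), beside a median of 3.23 FPKM. Zfp703 had the highest log2 fold change of all 312 in both glucose contrasts, in which it was chosen. Among the other 310, more genes fell than rose: with vehicle 5 rose and 27 fell in high glucose, beside 1.99% of all tested genes that rose and 1.31% that fell (edgeR, adjusted p under 0.05). Without replicate 2 of low glucose with vehicle the number that fell was 15. The median log2 fold change of the 310 was -0.13, beside 0.0021 for all tested genes. With TMAO 3 rose and 25 fell, beside 2% and 1.64% of all tested genes, with a median of -0.10. The 25 became 15 without replicate 1 or without replicate 3 of low glucose with TMAO, 10 without replicate 1 of high glucose with TMAO and 13 without replicate 3 of that condition. Many of these genes come from a large family of similar sequences, for which the handling of ambiguous reads was not given in the sources used here.

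Among the other Zfp genes past the threshold, the largest rises were the same 3 under both treatments. Zfp36, an RNA-binding protein of the CCCH type that promotes decay of AU-rich transcripts and no relative of the C2H2 factors, rose by 0.80 on the log2 scale with vehicle (SE 0.12, adjusted p = 5.6e-05 by edgeR) and by 0.56 with TMAO (SE 0.12, adjusted p = 0.0045 by edgeR). Zfp612 rose by 0.46 and 0.50, and Zfp568, a KRAB zinc finger repressor, by 0.34 in each. Among those past the threshold, the largest falls with vehicle were those of Zfp39 (-0.80), Zfp128 (-0.68) and Zfp599 (-0.62), and with TMAO those of Zfp691 (-0.97), Zfp551 (-0.78) and Zfp39 (-0.69). Zfp39 went from 3.10 ± 0.122 to 1.78 ± 0.0896 FPKM with vehicle (SD, n = 3). With TMAO at either glucose level, 0 of the other 310 Zfp genes were called by edgeR, beside 0.00616% and 0% of all tested genes at low and high glucose.

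**Figure D3:**
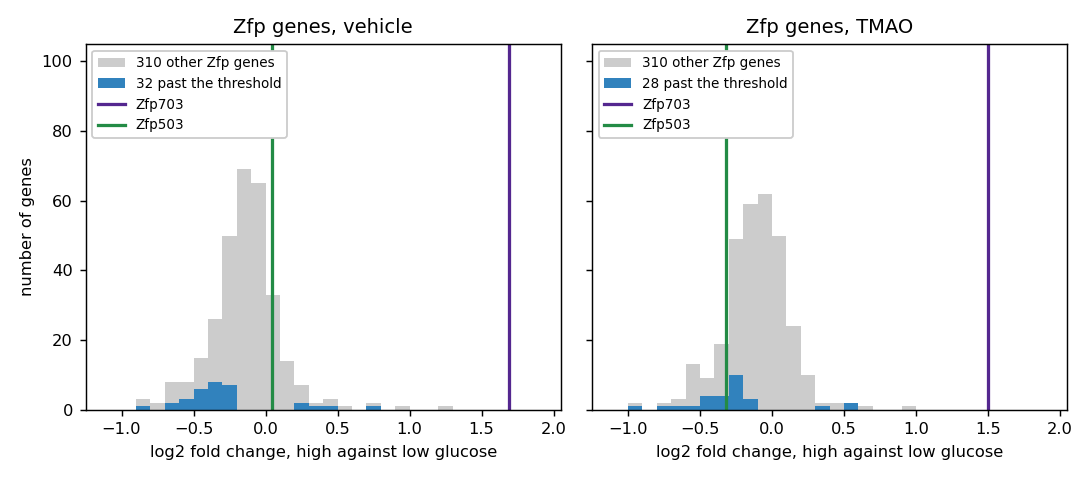
Number of tested Zfp genes (vertical axis) by log2 fold change of high against low glucose (horizontal axis), with vehicle (left) and with TMAO (right). Grey bars are all 310 genes other than the members, blue bars those past an adjusted p of 0.05, and lines mark Zfp703 and Zfp503. The grey bars centre at -0.13 and -0.10, and Zfp703 lies to the right of every other Zfp gene in both panels.

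The corepressors through which NET proteins act were measured at widely different levels, and few of their differences passed the test. All 6 Groucho/TLE genes were tested. Aes, the short family member that lacks the repeat domain of the others, was the highest at 153 to 159 FPKM in the condition means. Tle3 and Tle1 lay at 17.2 to 20.7 FPKM, Tle4 at 3.31 to 3.43, Tle2 at 1.74 to 2.07 and Tle6 at 0.351 to 0.463. The test called 1 of these 6 genes, in 1 of the 4 pairwise comparisons, in which 3.64% of all tested genes were called: Tle3 fell by 0.20 on the log2 scale in high against low glucose with TMAO (SE 0.054, adjusted p = 0.029 by edgeR), from 20.7 ± 0.865 to 17.9 ± 0.419 FPKM (SD, n = 3). The call was lost without any 1 of 5 of the 6 libraries compared, and with limma on FPKM. For TMAO at high glucose, 5 of the 6 fitted differences were below 0, with a median of -0.14 beside 0.00039 for all tested genes, and 0 passed.

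Of the NCoR complex, the histone deacetylases and reported protein partners, 9 genes are described and all were tested. None of these 9 passed in any of the comparisons by edgeR without a replicate block. That count is near the shares of all tested genes (3.3% and 3.64% for glucose, 0.00616% and 0% for TMAO). The lowest adjusted p in that fit was 0.152 (edgeR), for Phb2 in high against low glucose with TMAO. Ncor1, the corepressor that bridges repressors to histone deacetylase complexes, lay at 27.0 to 27.9 FPKM in the condition means. Hdac1, Hdac2 and Hdac3, the deacetylases themselves, had log2 differences between -0.036 and 0.033 in the 4 pairwise comparisons. Tbl1x, Tbl1xr1 and Gps2, subunits of the NCoR complex, lay at 23.9 to 24.3, 5.78 to 6.04 and 71.1 to 75.2 FPKM. Dcaf7 and Phb2, described as partners of the human counterpart of Zfp703, lay at 47.5 to 49.1 and 68.5 to 75.4 FPKM.

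Sp factors share with the NET proteins a buttonhead-type box, and 5 of the 9 were tested. Sp8, a regulator of limb and forebrain patterning, rose by 0.24 in high glucose with vehicle (SE 0.060, adjusted p = 0.019 by edgeR), from 17.4 ± 0.960 to 20.5 ± 0.715 FPKM (SD, n = 3), and was the only Sp factor called in any comparison, beside 3.3% of all tested genes in that contrast. That call was lost without replicate 2 or 3 of low glucose with vehicle and without replicate 1 or 3 of high glucose with vehicle, and with limma on FPKM. With TMAO the difference of Sp8 was 0.18 (SE 0.061) and was not called (adjusted p = 0.124 by edgeR), although 1 Sp factor was called in that contrast without replicate 3 of low glucose with TMAO. Sp1, Sp2, Sp3 and Sp4 were present at 5.39 to 27.7 FPKM, and Sp5, Sp6, Sp7 and Sp9 were too low to be tested.

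Of the genes known as repressed by a member in other tissues, Cdh1 (E-cadherin), reported for Zfp703 in mammary cells, was abundant at 112 to 116 FPKM and gave log2 differences between -0.039 and -0.016, none called. Tgfbr2, a receptor of TGF-beta, was at 0 counts in every library, below the 3 counts that a count of 0 allows. Gata3, a transcription factor reported downstream of Zfp503, had a mean of 1.83 counts and was not tested. So for Tgfbr2 and Gata3 no difference was detectable at this depth. For Cdh1 no difference passed the edgeR test, beside 3.3% and 3.64% of all tested genes called for glucose with vehicle and with TMAO. Whether Zfp703 acts on Cdh1 in these cells was not tested.

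**Figure D4:**
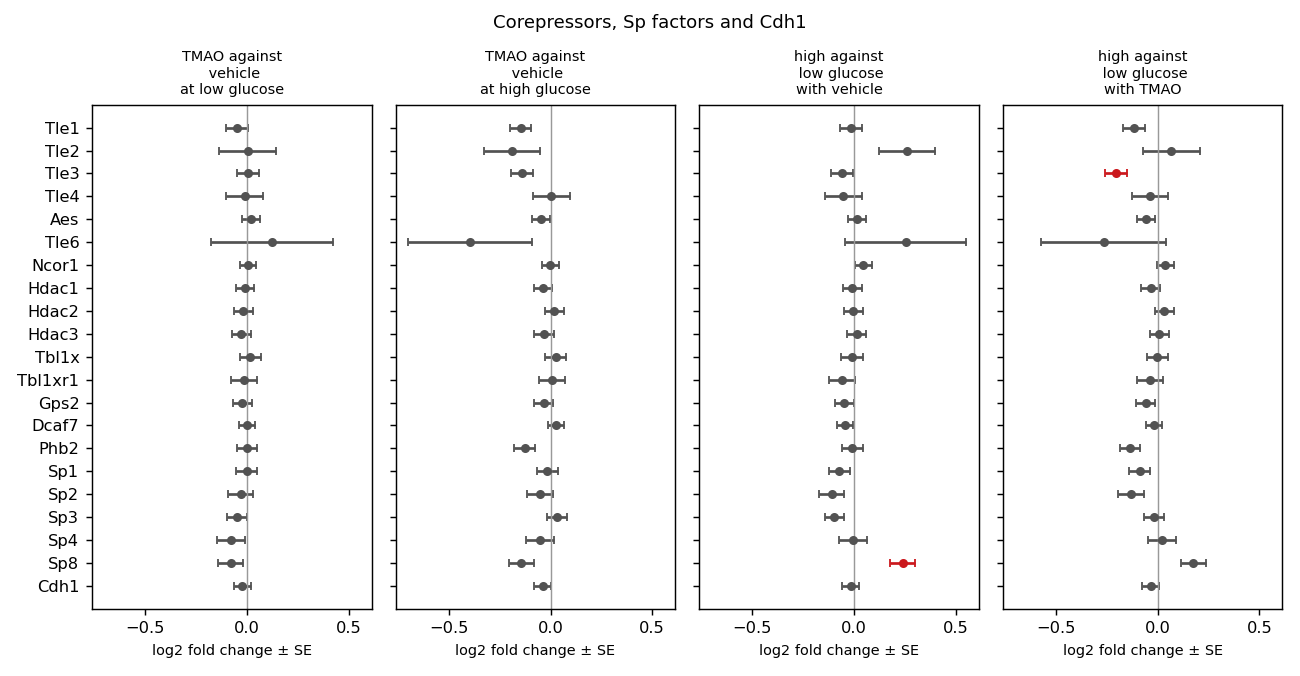
Fitted log2 fold changes with SE (horizontal axes) of the 21 tested corepressor, partner, Sp and target genes (vertical axis) in the 4 pairwise comparisons. Red marks the genes past an adjusted p of 0.05: Sp8 at 0.24 for glucose with vehicle and Tle3 at -0.20 for glucose with TMAO.

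None of the 6 and 5 tested genes around the members was called, where 3.3% and 3.64% of all tested genes were called for glucose and 0.00616% and 0% for TMAO, so the count is near that of all genes. Within 500 kb of Zfp703 the table listed 34 genes, of which 14 were at 0 counts in all libraries and 6 were tested. Those 6, Plpbp, Erlin2, Eif4ebp1, Rab11fip1, Brf2 and Adgra2, had log2 differences between -0.17 and 0.11 for glucose with vehicle and between -0.16 and 0.12 with TMAO, and none was called in any comparison. Within 500 kb of Zfp503, 15 genes were listed and 5 were tested, with none called. Vdac2, a mitochondrial channel gene, Samd8 and Kat6b, a histone acetyltransferase gene, lay between 0.0067 and 0.12 for TMAO at high glucose. Comtd1 was at -0.49 (SE 0.21, adjusted p = 0.910 by edgeR) and the low A430057M04Rik at -0.69 (SE 0.40, adjusted p = 0.920 by edgeR) in that contrast.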

How the data were processed

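Values were taken from 2 deposited tables covering all 12 libraries. The authors deposited counts of fragments per gene without normalization, and FPKM values, which are the counts per base of gene, scaled by a library total that was 0.998 to 1.014 times the summed counts. The submitters' processing notes name HISAT2 2.0.5, featureCounts 1.5.0-p3, DESeq2 1.16.1 and mm10, and the methods describe poly-T selection and paired-end sequencing.

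Counts were fitted with edgeR 4.0.16 in R 4.3.3 (filterByExpr, TMM, robust quasi-likelihood F test, means of the 4 conditions, all libraries), with Benjamini-Hochberg adjustment over 16222 genes and a threshold of 0.05. The SE of a log2 fold change was derived from its F statistic, and normalized counts use TMM library sizes. Glucose levels, TMAO dose and hours follow the methods. Genes named were both members, the hand-written lists (except for a gene not reported here), tested neighbours, the 5 genes most like each member, and the 3 largest called rises and falls among Zfp genes for glucose. The members and lists were chosen with earlier results of these data known. Steps were tested on simulated data. A floor of 3 counts is 1.79e-05% of the smallest library and covers counting error only. Alternatives were DESeq2 1.42.0 (size factors or Wald test), other filters, 6 libraries only, a replicate block, limma 3.58.1 after adding 1 or 0.1 to FPKM and taking log2, each library left out and Spearman correlation. Proteins were aligned globally with Biopython 1.88 (BLOSUM62, gap penalties 10 and 0.5).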

Additional observations from a re-analysis of the deposited data

How the results depend on the processing

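Zfp703 kept its rise with glucose under all 14 alternatives per treatment, with the lowest values from limma on log2(FPKM + 1), 1.53 with vehicle and 1.37 with TMAO, where the pseudocount lowers the fold by construction. With each library left out it lay between 1.63 and 1.75 with vehicle and between 1.43 and 1.56 with TMAO. Zfp503 at high glucose with TMAO stayed below vehicle in all 14 alternatives, from -0.44 to -0.27. It also stayed below low glucose with TMAO, from -0.36 to -0.24. For that glucose contrast the adjusted p lay between 0.0533 (edgeR with the replicate block) and 0.226 (edgeR without replicate 1 of high glucose with TMAO). Zfp503 was chosen on the high glucose libraries, so neither range is independent of that choice and no support is drawn from them.

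Values near 0 changed sign. Zfp703 for TMAO at high glucose ranged from -0.11 to 0.011 with each library left out, being 0.011 without replicate 3 of high glucose with vehicle and 0.00017 without replicate 1 of high glucose with TMAO. Zfp503 for TMAO at low glucose was 0.0013 with at least 10 counts in every library, 0.00066 with only the 6 libraries and 0.00028 with the replicate block, and ranged from -0.027 to 0.028 with each library left out, with 0.020 without replicate 2 of vehicle and 0.028 without replicate 2 of TMAO. Zfp503 for glucose with vehicle ranged from -0.017 to 0.12, being -0.017 without replicate 1 of high glucose with vehicle. The cause of these shifts was not tested.

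The replicate numbers did not clearly pair the libraries: deviations of same-numbered libraries correlated between -0.038 and 0.213, with 2 of 12 pairs over 0.1. Those were replicates 1 (0.213) and 3 (0.147) for TMAO against vehicle at low glucose, and a partial pairing is not settled by these values. With the block, 717 genes were called for glucose with vehicle and 783 with TMAO, against 536 and 591, no call of a member changed, and Phb2 was called for glucose with TMAO (-0.14, adjusted p = 0.0337 by edgeR). With no filter on low counts, 7 and 13 genes were called for TMAO at low and high glucose and 6 for the interaction, and with only the 6 libraries 3 for TMAO at each level. Leaving out 1 library gave 328 to 475 called genes for glucose with vehicle and 344 to 657 with TMAO. The other Zfp genes called lower numbered 15 to 36 with vehicle and 10 to 32 with TMAO over all settings, and those called higher 4 to 5 and 3. With Spearman correlation, 1 of the 5 genes most like Zfp703 and 1 of those most like Zfp503 were the same. Of 375 recomputed list counts, 353 stayed within 1.5 times and 22 moved. The values of Zfp503 rest on 174 to 301 counts per library and those of Zfp703 on 339 to 1509.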
